A study of Mus musculus with 4 samples.

Results

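CD8 T cells with an intact CD137 gene were compared between melanoma tumours and spleens of the same group of mice. The cells were those of the tumour CD137 plus and spleen CD137 plus libraries with a value of Cd8a or Cd8b1, the genes of the 2 chains of the CD8 coreceptor. That rule kept 2747 of 2766 cells of the tumour library and 469 of 473 of the spleen library, 3216 of the 6965 cells in the series. The animals were mixed bone marrow chimeras: C57BL/6 recipients, lethally irradiated with 8 Gray, were given marrow of Cd4cre Cd137fl/fl ROSA26tomato and of Cd137fl/fl ROSA26tomato donors, and blood was checked at 7 weeks. The CD137 plus cells descend from the donor with loxP-flanked Cd137 and no Cre, and the CD137 minus cells from the donor in which Cre under the Cd4 promoter deletes the gene in T cells. All groups thus carried the floxed allele, the reporter locus and an irradiated host, whose surviving cells cannot be told apart in the table. B16K1 cells, of the B16 mouse melanoma line, were injected under the skin, and at day 21 CD8 cells were enriched with magnetic beads and sorted by tomato. The labels disagree on the colour: the protocol ties tomato to loss of CD137, and the sample source names tie it to the wild-type cells. The groups therefore rest on the stated CD137 status and not on tomato. Each library pooled cells of 7 mice with hashtags that the table used here does not hold, so each group was 1 sample, no difference has a replicate error and no test was possible.

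CD137, also called 4-1BB and encoded by Tnfrsf9, is put on the T cell surface after antigen stimulation and adds a costimulatory signal. In spleen, resting CD8 cells carry receptors that take them into and out of lymphoid organs and the transcription factors of the naive and memory state. In tumours, repeated stimulation through the T cell receptor is known to induce inhibitory receptors and a set of nuclear factors, among them the NR4A family and TOX, that mark exhausted cells.

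The CD8 genes chose the cells, and the CD3 genes, which the rule did not use, were present in nearly all of them. Cd8a had a value in 90.2% of tumour and 91.0% of spleen cells, Cd8b1 in 98.3% and 99.4%, and at least 1 of the CD3 genes in 99.4% and 99.6%. Levels below are CPM, the corrected counts of a gene summed over the cells of a library and scaled to a total of 1e+06. The summed totals were 10198400 corrected counts in tumour and 2444060 in spleen, and the median per cell was 3700 in tumour and 5337 in spleen. Ribosomal protein genes took 29.0% of the tumour and 37.7% of the spleen total. Other lineages left small traces: 22 tumour cells and 0 spleen cells held at least 3 of 7 melanoma genes, and 182 tumour cells (6.63%) and 0 spleen cells had a value of at least 1 of Cd79a, Lyz2, C1qa, Mlana, Pmel, Dct and Cd4. Summed over their lists, melanoma markers stood at 84.4 CPM in tumour with 9 of 9 listed at 0 in spleen, B cell markers at 490 CPM in tumour and 377 CPM in spleen (3 of 9 at 0 in spleen), myeloid and dendritic markers at 353 and 162 CPM (5 of 10), NK and CD4 T markers at 169 and 87.2 CPM (4 of 7) and fibroblast, endothelial, red cell and platelet markers at 79.4 and 36.0 CPM (4 of 5). A gene listed at 0 in spleen may still have been detected in up to 4 of its cells, as described below. Spleen cells holding these markers can thus go unseen, and the tumour and spleen counts of such cells are not compared. Without the 182 cells, all of them from tumour, the counts given below were 576 higher and 353 lower. Without cells holding an MHC class II gene or Siglech they were 582 and 362. The 2 libraries shared 3 cell barcodes.

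No gene with a value was held by fewer than 5 cells of either library, so a gene listed at 0 may have been detected in up to 4 of the spleen CD8 cells (0.853%) or 4 of the tumour CD8 cells (0.146%), and expressed without detection in more, and the table lists 377 genes at 0 in tumour and 2942 in spleen. A gene counted as measured if 1 of the libraries had 20 CPM or more of it, with 5% or more of its cells holding a value, and as higher or lower when the log2 ratio of tumour to spleen, with 1 CPM added to both, was at least 1 in size. That size rule takes the place of a test. Of 5791 measured genes, 601 (10.4%) were higher in tumour, 352 (6.08%) were lower and 58 (1.00%) were listed at 0 in spleen. No measured gene was listed at 0 in tumour. The median log2 ratio over genes with a value in both libraries was 0.07, with an SD over genes of 0.84. Higher genes made up 63.1% of the calls. With ribosomal protein and mitochondrial genes left out of the totals, the median moved to -0.18 and 501 genes were higher and 717 lower, so that higher genes were 41.1% of the calls. With no scaling of the per-cell means it moved to -0.46, with 321 higher and 1130 lower (22.1% higher), and no call of the first scaling turned its direction under either.

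**Figure D1:**
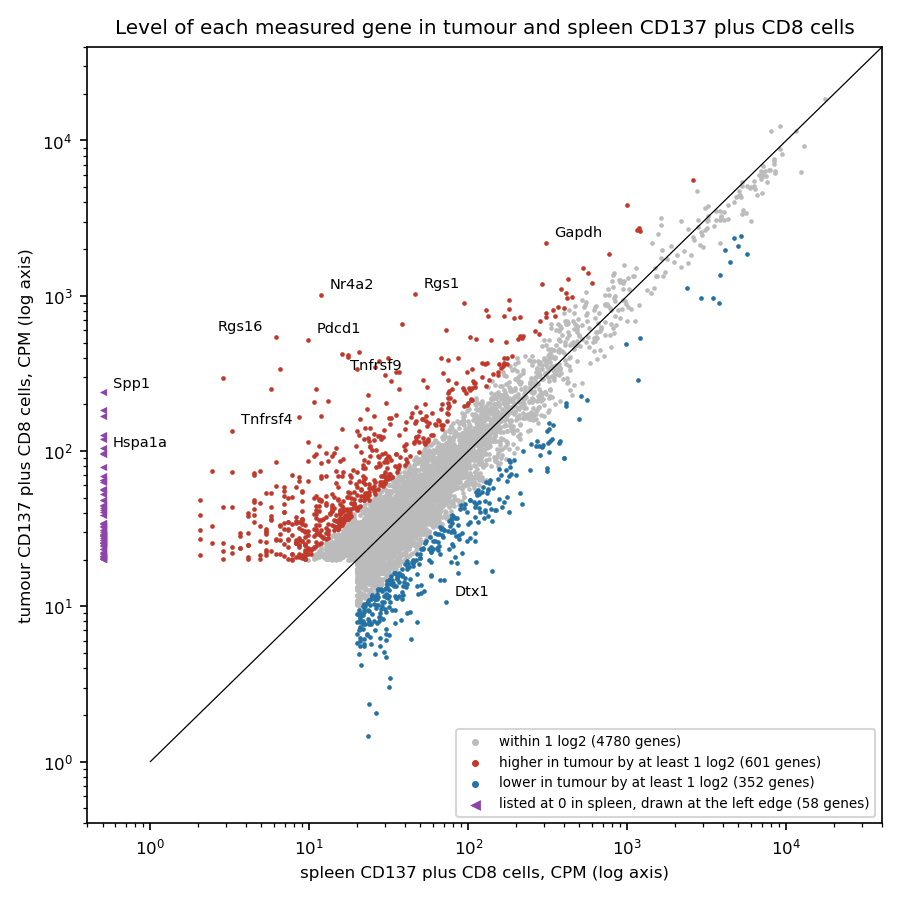
Level of each measured gene in tumour (vertical) and spleen (horizontal) CD137 plus CD8 cells, in CPM on log axes. Each point is a gene, the line marks equal levels, red and blue mark the 601 higher and 352 lower genes, and the 58 genes listed at 0 in spleen stand at the left edge. Nr4a2, Rgs16 and Pdcd1 lie far above the line and Dtx1 below it.

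The genes furthest above spleen were led by nuclear factors that T cell receptor signalling is known to induce. Nr4a2, which encodes an orphan nuclear receptor, stood at 1006 CPM in tumour cells against 11.9 CPM in spleen cells, a log2 ratio of 6.29. Its relatives Nr4a3 (251 CPM in tumour and 5.73 CPM in spleen, log2 ratio 5.23) and Nr4a1 (405 and 17.6 CPM, 4.45) were also among the 15 furthest above. Crem, a factor of the cAMP response element family, had 293 CPM in tumour and 2.86 CPM in spleen, a log2 ratio of 6.25. These spleen levels came from few cells: 17 held Nr4a2, 13 Nr4a3, 31 Nr4a1 and 6 Crem, so the ratios rest on small spleen counts. Nr4a2 had a value in 76.7% of tumour cells and 3.62% of spleen cells.

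The start sites of the 3 NR4A genes are shown because all 3 genes are among the 15 furthest above spleen and their promoters share a short word. The windows run from 250 bases before to 50 bases after the start and come from the RefSeq annotation of GRCm38.p6, read on the strand of the gene. Capitals mark each copy of TGACG, the core of the cAMP response element, on either strand (CGTCA where it lies on the other strand).
Nr4a1, chr15:101266596-101266895, plus strand: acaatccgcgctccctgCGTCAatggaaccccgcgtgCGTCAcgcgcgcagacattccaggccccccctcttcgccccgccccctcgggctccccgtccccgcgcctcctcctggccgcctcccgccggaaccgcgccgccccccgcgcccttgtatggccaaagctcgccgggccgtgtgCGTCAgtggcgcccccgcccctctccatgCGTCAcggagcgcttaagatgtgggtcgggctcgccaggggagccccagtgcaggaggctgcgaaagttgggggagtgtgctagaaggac
Nr4a2, chr2:57123954-57124253, minus strand: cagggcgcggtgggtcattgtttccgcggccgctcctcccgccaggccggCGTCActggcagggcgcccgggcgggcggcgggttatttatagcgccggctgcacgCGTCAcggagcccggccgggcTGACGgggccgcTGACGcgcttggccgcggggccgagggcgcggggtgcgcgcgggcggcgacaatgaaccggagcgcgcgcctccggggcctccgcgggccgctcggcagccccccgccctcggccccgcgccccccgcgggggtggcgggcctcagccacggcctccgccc
Nr4a3, chr4:48045055-48045354, plus strand: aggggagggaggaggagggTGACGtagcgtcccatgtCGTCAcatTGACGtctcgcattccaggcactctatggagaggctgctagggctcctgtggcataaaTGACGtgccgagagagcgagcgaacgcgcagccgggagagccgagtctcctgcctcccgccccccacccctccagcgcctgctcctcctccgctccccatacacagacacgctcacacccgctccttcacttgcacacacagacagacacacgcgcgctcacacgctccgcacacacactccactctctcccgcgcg
Dusp1, chr17:26508423-26508722, minus strand, a gene described further on: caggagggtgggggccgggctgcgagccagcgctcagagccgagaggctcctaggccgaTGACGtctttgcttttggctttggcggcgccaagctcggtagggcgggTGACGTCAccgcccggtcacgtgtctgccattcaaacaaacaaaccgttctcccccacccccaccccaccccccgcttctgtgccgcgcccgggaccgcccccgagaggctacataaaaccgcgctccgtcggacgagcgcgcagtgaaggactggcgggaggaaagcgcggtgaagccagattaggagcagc

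Each NR4A window held 4 copies, between 233 and 40 bases before the start in Nr4a1, 200 and 111 in Nr4a2, and 231 and 147 in Nr4a3, counted to the first base of a copy. At least 4 copies occurred in 76 of all 32851 windows (0.231%) and at least 1 in 20.8%. Dusp1 held 3 copies, 2 of which overlap in 1 full element, TGACGTCA, which 1.79% of all windows hold. Rgs2 held 2 copies, and the windows of Pdcd1, Rgs16 and Tnfrsf9 held none. Over the 15 genes furthest above, 5 of 14 windows of the 12 matched genes (35.7%) held at least 1 copy, and over the 15 furthest below 7 of 25 windows of 12 genes (28.0%). The other motifs searched, on both strands, were TGACGTCA, the AP-1 element TGANTCA (7.81% of all windows) and AAAGGTCA (1.51%), a word that NR4A proteins are known to bind. TGANTCA was in 2 of the 14 windows and the other 2 words in none. TGACG was singled out after all of these had been counted, so the shared copies are a description of these windows and no sign of binding.

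The list of nuclear factors linked to exhaustion, which takes in NR4A genes described above, was higher as well. Of the 18 factors listed, 12 were measured, 11 were higher and none was lower, with a median log2 ratio of 2.87 against 0.07 over all genes. Bhlhe40, a repressor of the basic helix-loop-helix family, had 336 CPM in tumour and 20.05 CPM in spleen (log2 ratio 4.00), and Rbpj, the DNA-binding partner of Notch, 86.8 and 9.82 CPM (3.02). Ikzf2, which encodes the factor Helios, had 84.1 CPM in tumour and 11.9 CPM in spleen (2.73). Tox, a driver of the exhausted state, was higher by a smaller ratio, 191 CPM in tumour and 47.1 CPM in spleen (2.00). Nfatc1 stayed just inside the limit with 108 CPM in tumour and 54.4 CPM in spleen (0.97). Of 12 measured factors of effector and naive cells, 1 was higher, Tbx21 (134 CPM in tumour and 48.7 CPM in spleen, 1.44). Klf3 was the 1 lower (78.8 and 182 CPM, -1.19). These counts are near the shares over all measured genes, 10.4% higher and 6.08% lower, so nothing is read from them about the list. Eomes, Runx3, Id3 and Stat4 had ratios between -0.18 and 0.05. Tbx21 encodes T-bet, a driver of effector genes, and its ratio was 0.42 in cells with at least 10 counts of Ccl5, a subset described further on.

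Inhibitory receptors were higher as well. Of 14 measured genes of this list, which also holds ectoenzymes, 9 were higher and none was lower, with a median log2 ratio of 2.40. Cd200r1 was listed at 0 in spleen (21.2 CPM in tumour). Pdcd1, which encodes PD-1, had 521 CPM in tumour and 9.82 CPM in spleen (5.59). Tigit had 415 CPM in tumour and 17.6 CPM in spleen (4.48), Ctla4 210 and 13.1 CPM (3.91), Lag3 346 and 25.8 CPM (3.69) and Havcr2, which encodes TIM-3, 48.2 and 4.50 CPM (3.16). The ectoenzyme Entpd1, CD39, had 37.6 CPM in tumour and 8.18 CPM in spleen (2.07). Members that stayed within the limit were Cd160 (81.9 CPM in tumour and 45.4 CPM in spleen), the ectoenzyme gene Nt5e (31.6 and 17.6 CPM), Cd96 (98.7 and 80.2 CPM) and Vsir (89.9 and 160 CPM). Vsir encodes VISTA and was the one measured member with a negative ratio (-0.82). With the ribosomal and mitochondrial genes left out of the totals, or with no scaling, 1 of the 14 was lower.

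Costimulatory receptors divided by gene. Tnfrsf9 itself had 423 CPM in tumour and 15.96 CPM in spleen (4.64), and it had a value in 45.4% of tumour cells and 4.05% of spleen cells. Tnfrsf4, which encodes OX40, had 135 CPM in tumour and 3.27 CPM in spleen (5.00), and Tnfrsf18, GITR, 188 and 74.9 CPM (1.32), while Tnfrsf1b had a ratio of 1.90. Cd27 had 163 CPM in tumour and 239 CPM in spleen (-0.55), and the adaptor Traf2 had 33.1 CPM in both. The ligand genes Tnfsf9 (26.0 CPM) and Tnfsf11 (56.8 CPM) were measured in tumour and listed at 0 in spleen. Within the immunoglobulin family, Icos (185 CPM in tumour and 22.9 CPM in spleen, 2.96) and Cd28 (236 and 97.4 CPM, 1.27) were higher and Slamf6 (37.0 and 84.3 CPM, -1.17) was lower, out of 8 measured.

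Many tumour cells held several of these receptors. Of Pdcd1, Tigit, Lag3, Ctla4 and Havcr2, at least 3 had a value in 41.8% of tumour cells (95% interval 40.0 to 43.7) and in 1.28% of spleen cells (0.471 to 2.76), and none had a value in 25.2% of tumour and 88.7% of spleen cells. Intervals here are exact Clopper-Pearson ones and cover counting error only. Since spleen cells had larger totals, every cell was also thinned to 2900 corrected counts, which all 2747 and 469 cells reached. After thinning at least 3 receptors had a value in 36.3% of tumour cells and 1.07% of spleen cells. As a check on RNA from outside the cells, the 16 cells of the tumour library with at least 3 of Siglech, H2-Aa, H2-Ab1 and H2-Eb1 and no CD3 gene were used, with a median total of 4353. Pdcd1 had a value in 1 of these 16 cells (6.25%, interval 0.158 to 30.2), as had Tnfrsf9 and Nr4a2, whereas Lag3 had one in 9, Crem in 6, Nr4a1 in 5 and Nr4a3 in 4. Of the 16 cells, 11 passed the CD8 rule and so belong to the cells compared here, and such cells may make these genes themselves. The check cannot tell their own RNA from RNA from outside. The shares of these genes can therefore hold a background that it does not bound. The spleen library held 2 such cells, too few for a background, and the low spleen shares of Pdcd1 (2.56%) and Tnfrsf9 are therefore not read as expression.

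**Figure D2:**
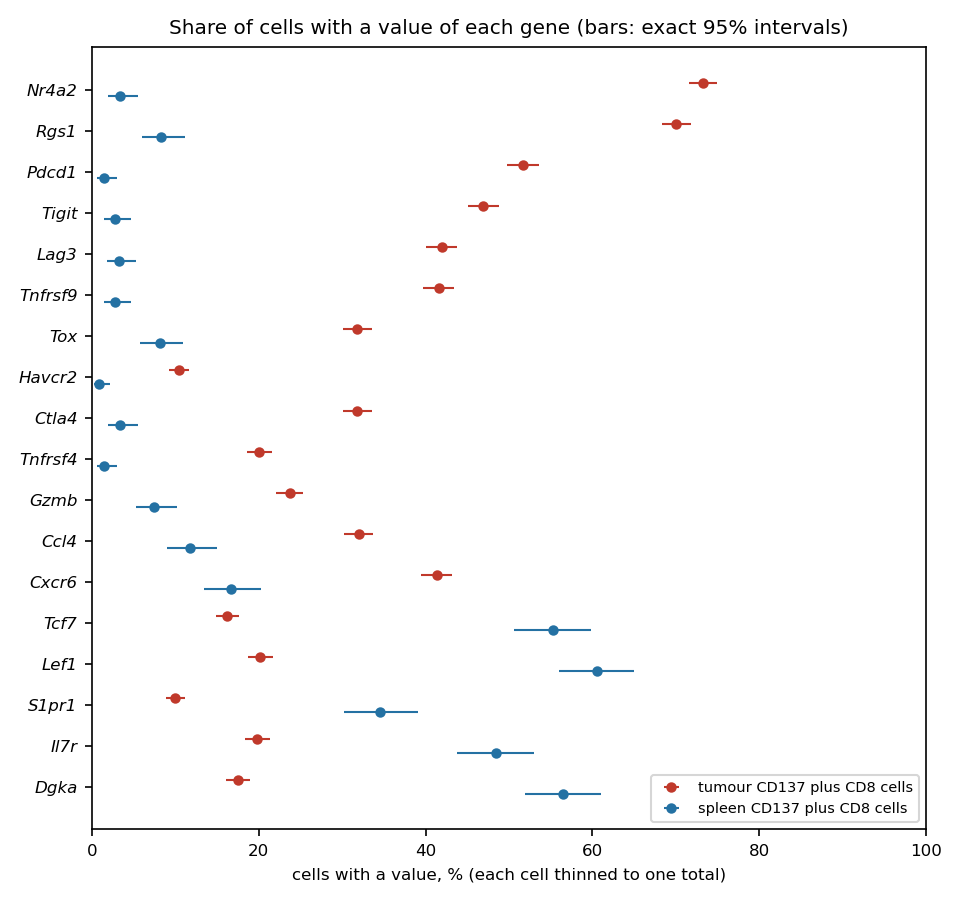
Share of cells with a value of each gene after thinning every cell to 2900 corrected counts, with exact 95% intervals for counting error. Tumour cells (red, upper mark) lie right of spleen cells (blue, lower mark) for the 13 genes from Nr4a2 to Cxcr6 and left of them for the 5 from Tcf7 to Dgka.

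Tumour cells varied among themselves. After thinning, 1419 tumour cells had a value of Pdcd1 and 1328 had none. Tnfrsf9 had a value in 59.0% of the cells with Pdcd1 and 22.97% of those without, Tigit in 66.5% and 26.0%, and Tox in 44.7% and 18.1%. Gzmb, the cytotoxic protease granzyme B, differed less, with 25.7% and 21.5%, and so did the chemokine Ccl4, with 32.5% and 31.4%. Tcf7 had a value in 8.74% of the cells with Pdcd1 and 24.2% of those without, and Klf2 in 34.0% and 68.5%. Junb had a value in 98.2% and 97.8%, Dusp1 in 61.5% and 69.1% and Hspa1a in 8.74% and 17.1%. The cut on 1 gene makes these ranges and not types of cell, and a cell with no value may still express Pdcd1.

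Genes of the resting state were lower in tumour cells. Of the 15 genes for the naive state and for homing to lymph nodes, all were measured, 11 were lower and none was higher, with a median log2 ratio of -1.37. S1pr1, the receptor by which T cells leave lymphoid organs, had 43.4 CPM in tumour and 163 CPM in spleen (-1.88). The transcription factor genes Tcf7 (78.0 CPM in tumour and 311 CPM in spleen, -1.98) and Lef1 (113 and 374 CPM, -1.72) and the interleukin-7 receptor gene Il7r (113 and 317 CPM, -1.48) were lower as well. Tcf7 had a value in 19.7% of tumour and 74.0% of spleen cells, and in 16.2% and 55.2% after thinning. Ccr9, Actn1, Ccr7 and Klf2 stayed within the limit.

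Klf2 and Ccr7 parted level and share. Klf2, a factor that maintains S1pr1, had 1134 CPM in tumour and 816 CPM in spleen (0.47) with a value in 53.1% and 91.5% of cells. Ccr7, the receptor for lymph node chemokines, had 452 and 372 CPM (0.28) with a value in 34.3% and 73.3%. The shares go against the levels, and no order is read from them.

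The genes furthest below spleen were led by Dtx1, which encodes a ubiquitin ligase of the Notch pathway, with 10.6 CPM in tumour and 72.8 CPM in spleen (-2.67). Next came Arhgef18 (19.4 CPM in tumour and 111.7 CPM in spleen, -2.46), a guanine nucleotide exchange factor, Tmem108 (16.3 and 85.5 CPM, -2.32), Ripor2 (45.9 and 217 CPM, -2.22) and the adaptor Sh2d3c (14.7 and 70.4 CPM, -2.18). Dgka, the diacylglycerol kinase that dampens T cell receptor signals, had 74.9 CPM in tumour and 313 CPM in spleen (-2.05), and Pik3ip1, an inhibitor of PI3 kinase, 21.96 and 90.8 CPM (-1.9996). Pdk1 (14.8 and 65.9 CPM, -2.08) encodes a kinase that holds pyruvate back from oxidation in the mitochondria. Further genes by that rule were Pde2a, Lcn4, Scml4, Treml2 and Fcgrt, with ratios between -2.10 and -1.95. Among 14 measured negative regulators of T cell receptor signalling, Dgka was the lower one and Sh2d2a (1.91), Ubash3b (1.76) and Cblb (1.08) were higher.

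Rgs16, Rgs1 and Rgs2 were among the 15 genes furthest above spleen. Rgs16 had 540 CPM in tumour and 6.14 CPM in spleen (6.24), Rgs1 1027 and 46.2 CPM (4.44) and Rgs2 252 and 11.05 CPM (4.39), all encoding proteins that switch off G protein signals. Rgs10 of the same family, a member of the list of negative regulators, had 136 CPM in tumour and 246 CPM in spleen (-0.85), within the limit, while Rgs19 (52.9 and 116 CPM, -1.12) and Rgs14 (25.5 and 53.2 CPM, -1.03), named after their values were seen, were lower. The remaining genes of the 15 furthest above were Litaf (337 CPM in tumour and 6.55 CPM in spleen, 5.48), Sult2b1 (74.1 and 2.45 CPM, 4.44), Gadd45b (437 and 20.5 CPM, 4.35) and Gem (208 and 10.6 CPM, 4.17). Gadd45b encodes a stress-response protein and Gem a small GTP-binding protein. Chemokine receptor and residency genes included both directions: of 10 measured, 6 were higher, 2 were lower and Ccr8 (65.0 CPM in tumour) was listed at 0 in spleen. Cxcr6, a receptor of tissue-resident T cells, had 316 CPM in tumour and 69.1 CPM in spleen (2.18), whereas Itgb7 (116 and 327 CPM, -1.48), a chain of the gut-homing integrin, and Ccr2 (16.4 and 36.8 CPM, -1.12) were lower.

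Effector genes rose unevenly. Of 14 measured cytotoxic genes, 9 were higher and 1 was lower. Gzmb had 260 CPM in tumour and 54.8 CPM in spleen (2.22), Fasl 108 and 24.1 CPM (2.12), Gzmk 179 and 49.5 CPM (1.84) and Prf1, perforin, 156 and 73.2 CPM (1.08). Prf1 stayed within the limit in cells with a Ccl5 value (0.94) and in those with at least 10 counts of it (0.53), where 31.8% of tumour and 43.1% of spleen cells had a Prf1 value. Serpinb9, an inhibitor of granzyme B, had 97.3 CPM in tumour and 12.7 CPM in spleen (2.84). Gzmm was the lower one, with 27.7 CPM in tumour and 102 CPM in spleen (-1.84), and Gzma had 217 and 293 CPM (-0.43). Among 12 measured chemokines and cytokines, 7 were higher, none was lower and 3 were listed at 0 in spleen. Xcl1, the attractant of cross-presenting dendritic cells, had 660 CPM in tumour and 38.5 CPM in spleen (4.07), Ifng 377 and 27.4 CPM (3.73), Ccl3 395 and 31.1 CPM (3.62) and Ccl4 738 and 133 CPM (2.46). Ccl5 had 6864 CPM in tumour and 7107 CPM in spleen (-0.05).

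Surface genes of memory and effector cells were mixed, with 5 higher and 2 lower of 13 measured and a median log2 ratio of -0.0015. Klrk1 (203 CPM in tumour and 74.1 CPM in spleen, 1.44), the gene of the activating receptor NKG2D, and Cd44 (81.5 and 36.4 CPM, 1.14) were higher. With no scaling 0 of the 13 were higher. S1pr5 (4.90 CPM in tumour and 25.8 CPM in spleen, -2.18) and Klrg1 (-1.08) were lower. Cx3cr1, like them a gene of circulating effector cells, had 27.1 CPM in tumour and 33.6 CPM in spleen (-0.30) with a value in 8.01% and 6.82% of cells. Without cells holding a class II gene or Siglech, 1 of the 13 was lower.

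Of the 58 genes listed at 0 in spleen, the 8 with the highest tumour levels were Spp1 (239 CPM, a value in 12.3% of tumour cells), Nrn1 (184 CPM, 24.1%), Nrgn (169 CPM, 25.8%), Hspa1a (127 CPM, 14.5%), Dusp4 (119 CPM, 24.2%), Mt1 (105 CPM, 18.6%), Cdkn1a (97.8 CPM, 20.4%) and Ccl1 (95.8 CPM, 7.50%). They encode osteopontin, a neuritin, a calmodulin-binding protein of neurons, an inducible HSP70 chaperone, a MAP kinase phosphatase, a metallothionein, the cell cycle inhibitor p21 and a chemokine. No ratio is given for them. The share of tumour cells with a value ran from 5.28% to 25.8% over the 58 genes.

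Immediate-early and stress genes were higher. Of 14 measured AP-1 factors and dual-specificity phosphatases, 7 were higher, none was lower and Atf3 and Dusp4 were listed at 0 in spleen. Fosl2 had 169 CPM in tumour and 11.9 CPM in spleen (3.72), Dusp5 324 and 36.8 CPM (3.10), Dusp1 808 and 129 CPM (2.64) and Junb 3844 and 1000 CPM (1.94). Fos had 657 and 331 CPM (0.99), just inside the limit. Of 12 chaperone genes, 7 were higher and Hspa1a and Hspa1b were listed at 0 in spleen. Hsp90aa1 had 741 CPM in tumour and 169 CPM in spleen (2.13), and the endoplasmic reticulum chaperone Hspa5 722 and 194 CPM (1.89), whereas Hspe1 had 352 and 341 CPM (0.05). How long tumour and spleen were handled before sorting is not given in the labels, and its part was not tested.

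Metabolic genes moved by pathway. Of 13 measured glycolysis genes, 8 were higher, none was lower and the lactate exporter Slc16a3 (29.9 CPM in tumour) was listed at 0 in spleen. Gapdh had 2177 CPM in tumour and 307 CPM in spleen (2.82), Tpi1 289 and 51.6 CPM (2.46), Eno1 544 and 102 CPM (2.40) and Aldoa 1037 and 412 CPM (1.33). With no scaling 3 of the 13 were higher. Gapdh and Eno1 have near-identical processed copies in the mouse genome, and the labels do not say how reads were divided among copies, so their levels are uncertain. Of 18 nuclear genes of oxidative phosphorylation none passed the limit, with a median log2 ratio of 0.10. Of 14 listed S100, galectin, annexin and cytoskeletal genes 13 were measured and 7 were higher (4 with no scaling), the furthest being S100a4 (605 CPM in tumour and 72.01 CPM in spleen, 3.05). Genes of the cell cycle had 7 higher of 13 measured, with Mki67, the proliferation marker, in 5.21% of tumour and 1.28% of spleen cells.

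The machinery of the T cell receptor and of antigen display stayed within the limit. None of the 13 CD3, CD8 and kinase genes was higher or lower, with a median log2 ratio of 0.23. Cd8a had 934 CPM in tumour and 518 CPM in spleen (0.85) and Cd8b1 1430 and 1738 CPM (-0.28). Of 16 genes of MHC class I display 1 was lower, H2-T23 (151 and 324 CPM, -1.10), and of 14 measured interferon-stimulated genes 1 was higher, Isg15 (157 and 54.4 CPM, 1.51). The medians of these lists and of oxidative phosphorylation, between -0.02 and 0.23, were below 0 with no scaling, so no direction is given for them.

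Survival and NF-kB genes moved in part. Of 13 measured BCL2 family and survival genes, 4 were higher and 1 was lower. Bcl2a1d had 166 CPM in tumour and 8.59 CPM in spleen (4.12) and Bcl2a1b 321 and 35.2 CPM (3.15), near-identical genes between which reads could be split, while Bcl2, an inhibitor of cell death, had 116 and 271 CPM (-1.22). Bcl2l11 (61.4 CPM in tumour and 19.6 CPM in spleen, 1.60) and Pmaip1 (29.3 and 11.05 CPM, 1.33), which encode the death-promoting proteins BIM and NOXA, were the other higher ones. Of 13 NF-kB genes 6 were higher, among them the feedback inhibitors Tnfaip3 (388 CPM in tumour and 74.9 CPM in spleen, 2.36) and Nfkbia (1198 and 292 CPM, 2.03), and Ikbkb (43.5 and 110.1 CPM, -1.32), a kinase subunit, was lower.

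**Figure D3:**
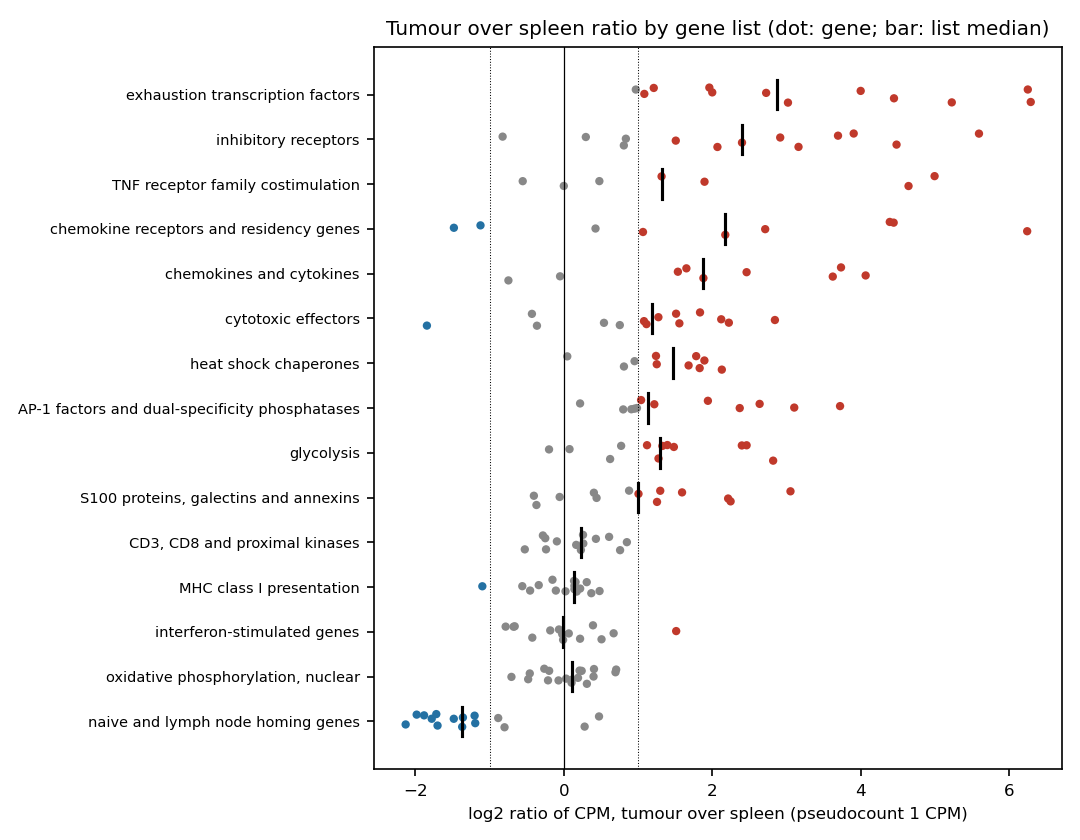
Log2 ratio of tumour to spleen CPM, with 1 CPM added, for the genes of 15 lists that had a value in both libraries. Each dot is a gene, red at 1 or above and blue at -1 or below, grey between, and the black bar is the median of the list. The medians run from 2.87 for exhaustion factors to -1.37 for naive and homing genes, and 4 lists centre near 0.

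The cells of the 2 organs differ in mix, so the contrast was repeated within a gate of cells with a Ccl5 value, the chemokine gene of effector and memory cells. The gate held 2357 of the tumour cells (85.8%) and 324 of the spleen cells (69.1%). Ccl5 had a value in 2 of the 16 cells with class II genes and no CD3 gene. Whether a low Ccl5 value is background or RNA of the cell itself was not tested. In the Ccl5 gate 559 of 5735 measured genes were higher (9.75%), 415 lower (7.24%) and 51 listed at 0 in spleen (0.889%). The gate draws on the same pair of libraries as the contrast over all cells.

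Naive and homing genes were lower in tumour within the Ccl5 gate too. Of 14 measured members 10 were lower and none was higher, with a median log2 ratio of -1.61 against 0.03 over all genes of the gate. Among them were Tcf7 (69.4 CPM in tumour and 299 CPM in spleen, -2.09), Lef1 (98.9 and 345 CPM, -1.79) and Il7r (113 and 357 CPM, -1.66). Klf2 had 1093 CPM in tumour and 885 CPM in spleen (0.30).

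Of the exhaustion factor list 11 of 13 measured genes were higher in the gate and none was lower. Nr4a2 had 1061 CPM in tumour and 15.7 CPM in spleen (5.99), and Tox 199 and 52.5 CPM (1.90). Of the AP-1 and phosphatase list 8 of 14 were higher and 2 were listed at 0 in spleen. Dusp1 had a ratio of 2.71 and Junb 2.03, whereas Jund (0.91), Jun (0.89), Fosb (0.82) and Dusp6 (0.49) stayed within the limit. Hspa1a had 123 CPM in tumour and was listed at 0 in spleen.

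Inhibitory receptors were higher in the Ccl5 gate too. Of 15 measured genes of the inhibitory receptor list, 10 were higher in the Ccl5 gate, with Pdcd1 at 552 CPM in tumour and 14.5 CPM in spleen (5.16). S1pr5 had 5.797 CPM in tumour and 38.03 CPM in spleen there (-2.52), Klrg1 13.2 and 36.8 CPM (-1.41) and Gzmm 31.4 and 149 CPM (-2.21), whereas Cx3cr1 (-0.79), Gzma (-0.74) and Zeb2 (-0.37) stayed within the limit. In cells with at least 10 corrected counts of Ccl5, a limit chosen after the first gate had been seen, 1304 tumour and 181 spleen cells remained. The limit is not scaled to the total of a cell, whose median in them was 3621.5 in tumour and 5464 in spleen. Of 5732 measured genes 531 were higher (9.26%), 537 lower (9.37%) and 52 listed at 0 in spleen (0.907%), with ratios of 4.48 for Pdcd1, -2.57 for S1pr5 and -1.42 for Cx3cr1. Of the 120 listed genes called higher over all cells, 102 were higher in the Ccl5 gate and 91 in the cells with at least 10 counts, and of the 26 called lower 25 and 22 were lower. None took the opposite call. These genes were chosen by their calls over cells that include the gated ones, so the calls kept are no separate support. The share kept was not counted over all called genes. Klrk1, Cd44 and Itgb1, higher over all cells, had 0.94, 0.84 and 0.71 in the Ccl5 gate and 0.33, 0.38 and 0.04 in the cells with at least 10 counts. Cblb had 0.87 and 0.96 in them, and Cd28 had 0.87 in the cells with at least 10 counts. Of 12 measured effector and naive factors 1 was higher in the Ccl5 gate, Tbx21 (1.04), and 0 in the cells with at least 10 counts, where Tbx21 had 149 CPM in tumour and 112 CPM in spleen (0.42). Of 13 measured S100, galectin, annexin and cytoskeletal genes 5 were higher in the Ccl5 gate and 3 in the cells with at least 10 counts, and of 13 glycolysis genes 8 and 6. Of the AP-1 and phosphatase list 11 of 13 measured genes were higher in the cells with at least 10 counts.

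The cells of the other donor in the same mice were compared in the same way. Over the CD137 minus libraries, 1251 tumour and 2444 spleen CD8 cells, 497 of 5434 measured genes were higher (9.15%) and 173 lower (3.18%). Both pairs called 382 genes higher, 63.6% of those in CD137 plus cells and 76.9% of those in CD137 minus cells, and 117 lower, 33.2% and 67.6%. None was called in opposite directions. Over 5290 genes with a ratio in both pairs, the SD of the difference of the ratios was 0.42. The mice were the same and Tnfrsf9 is deleted in 1 donor, so this is no replicate of the contrast. Nr4a2 had 687 CPM in tumour and 5.65 CPM in spleen (6.69), Pdcd1 365 and 5.03 CPM (5.93) and Tcf7 101 and 331 CPM (-1.70) in CD137 minus cells. Tnfrsf9 had 58.0 CPM in tumour and 2.36 CPM in spleen (4.13) in them, although the gene is deleted in T cells of that donor. Where these counts come from was not tested, so the ratio is not read as induction of an intact gene.

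Some ratios differed between the cells of the 2 donors. Eno1 had a log2 ratio of 2.40 in CD137 plus cells (544 CPM in tumour and 102 CPM in spleen) and 0.28 in CD137 minus cells (307 CPM in tumour and 252 CPM in spleen). Gapdh had a log2 ratio of 2.82 in CD137 plus cells (2177 CPM in tumour and 307 CPM in spleen) and 0.92 in CD137 minus cells (981 CPM in tumour and 519 CPM in spleen). Both were further above spleen in CD137 plus cells, and the next 2 genes in CD137 minus cells. Lag3 had a log2 ratio of 3.69 in CD137 plus cells (346 CPM in tumour and 25.8 CPM in spleen) and 5.73 in CD137 minus cells (253 CPM in tumour and 3.80 CPM in spleen). Zeb2, a factor of terminal effector cells, had a log2 ratio of 0.07 in CD137 plus cells (27.1 CPM in tumour and 25.8 CPM in spleen) and 2.45 in CD137 minus cells (25.7 CPM in tumour and 3.90 CPM in spleen). The spleen CD137 plus library held more cells with at least 10 corrected counts of Ccl5 (38.6%) than the spleen CD137 minus library (18.7%). That limit is not scaled to the total of a cell, whose median was 5337 in spleen CD137 plus and 3965.5 in spleen CD137 minus cells. The part of either difference in these ratios was not tested. Of the 15 genes furthest below, Pde2a, Lcn4, Scml4 and Fcgrt were within the limit in CD137 minus cells, with ratios between -0.87 and -0.76.

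**Figure D4:**
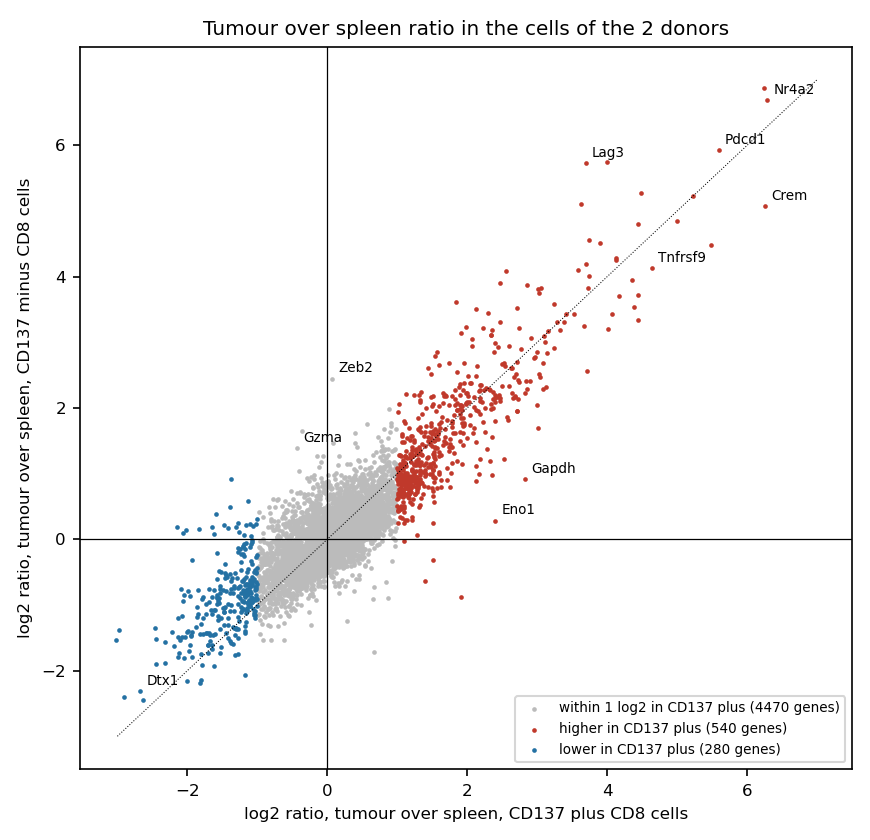
Log2 ratio of tumour to spleen in CD137 plus (horizontal) and CD137 minus (vertical) CD8 cells for the 5290 genes with a ratio in both pairs. Each point is a gene, coloured by its call in CD137 plus cells, and the dotted line marks equal ratios. The points follow the line, with Gapdh and Eno1 below it and Zeb2, Gzma and Lag3 above it.

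Usage of receptor segments was counted, which does not identify clones. A cell was assigned the Trbv segment with its highest value, which left 2314 tumour and 416 spleen cells with exactly 1 such segment, although 39.9% and 37.7% of cells with any segment held at least 2. Trbv29 was assigned to 11.9% of tumour cells (95% interval 10.6 to 13.3) and 5.29% of spleen cells (3.34 to 7.90), and Trbv12-1 to 11.9% (10.6 to 13.3) and 10.3% (7.58 to 13.7). Some segments had the larger share in spleen. Trbv15 had 1.69% in tumour (1.20 to 2.30) and 5.53% in spleen (3.54 to 8.18). Trbv1 had 3.24% in tumour (2.56 to 4.05) and 6.01% in spleen (3.93 to 8.74). Trbv3 had 4.67% in tumour (3.84 to 5.61) and 7.69% in spleen (5.32 to 10.7). For Trbv1 and for Trbv3 the intervals overlap, so no order is read from these shares. Among CD137 minus cells Trbv15 and Trbv1 also had the larger share in spleen, but Trbv3 had it in tumour. In CD137 minus cells Trbv29 had 7.88% in tumour and 6.13% in spleen. Within the tumour Trbv29 was used by 12.4% of cells with a Pdcd1 value and 11.4% of those without, and Trbv12-1 by 14.5% and 8.63%. Since clones of single mice may fill these shares and no cell is assigned to a mouse, the spread between animals is not known.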

How the data were processed

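The deposited table holds natural log values, which the authors made from 10x 5' single-cell libraries. Cell Ranger 3.0.2 and Seurat 3.0 and the build mm10 are named in the submitters' processing notes. The values undo to whole numbers (largest deviation under 1e-12), taken here as depth-corrected counts, so their spread between cells is not that of raw counts. No column belonged to another series. Tables were read and summed with pandas 2.3.3 and numpy 2.4.6 under Python 3.11.15, intervals came from scipy 1.17.1 and plots from matplotlib 3.10.9. Corrected counts were summed per library, scaled to 1e+06 (CPM), and compared as log2 ratios with a pseudocount of 1 CPM. With 1 library per group no test was run, and a size limit of 1 on the log2 scale served instead. The genes named are members of 31 lists of 430 genes, the 15 furthest above and below among genes of at least 50 CPM with a value in both libraries, and the 8 with the highest tumour CPM listed at 0 in spleen. Receptor segments, immunoglobulin, mitochondrial, ribosomal, haemoglobin, sex-linked and unnamed genes were left out of the last 3 sets. Some genes, and the planned gate that used one of them, are not reported here. The members, lists and gates were chosen with earlier results of these data known. No doublet caller was run, and no batch is given beyond the library itself. Intervals are exact Clopper-Pearson intervals at 95%. Promoter windows came from RefSeq tables of GRCm38.p6.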

Additional observations from a re-analysis of the deposited data

Results flagged for a closer look

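Of 321 listed or named genes with a ratio in both pairs of libraries, out of 425, 2 had opposite signs in the CD137 plus and CD137 minus cells and a ratio past the size limit in the CD137 minus cells. Gzma, which encodes granzyme A, had a log2 ratio of -0.43 in CD137 plus cells (217 CPM in tumour and 293 CPM in spleen) and 1.39 in CD137 minus cells (198 CPM in tumour and 74.7 CPM in spleen). Ahnak, a large scaffold protein gene, had -0.40 in CD137 plus cells (245 CPM in tumour and 325 CPM in spleen) and 1.04 in CD137 minus cells (232 CPM in tumour and 112 CPM in spleen). The same count was not made over all 5290 genes with a ratio in both pairs, so 2 is not read as few or many. The difference between the pairs was not tested, since each group was 1 library.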

How the results depend on the processing

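No paired analysis was possible because each group was 1 library and no result came from a test, and for the same reason no replicate could be left out. The 601 higher and 352 lower genes and the 58 listed at 0 in spleen changed as follows. A size limit of 0.5 gave 1395 higher and 995 lower. A filter of 50 CPM and 10% of cells gave 346, 171 and 14, and no filter gave 825 lower and 2596 at 0. A pseudocount of 10 CPM gave 186 lower. Totals without ribosomal protein and mitochondrial genes gave 717 lower, and no scaling 321 higher and 1130 lower. The CD137 minus libraries gave 173 lower and 17 at 0. Over all listed genes, no scaling gave 79 higher and 48 lower, the limit of 0.5 gave 47 lower, and the number at 0 was 62 with no filter, 9 with the stricter filter and 7 in the CD137 minus libraries. Thinning brought Pdcd1 to 51.7% of tumour cells. The gate of at least 10 counts of Ccl5 was chosen after seeing the data. Counting any Trbv29 value gave 15.2% of tumour cells. The other 81 values of these main results under changed settings stayed within 1.5 times or within their intervals. No gene called higher or lower turned its direction. Beyond the main results, 146 counts of single lists moved and 1249 did not. Medians of lists moved by more than 0.5 in 28 cases and not in 421. Shares of cells with a gene or segment left their intervals in 63 cases and not in 103. Among ratios of named genes, 4 fell inside the size limit and 446 did not. The cause of these shifts was not tested. The number of cells limits the genes at 0: a gene detected in up to 4 spleen cells (0.853%) is listed at 0.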
